A study of Mus musculus with 24 samples.

Results

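Luminal progenitor (LP) cells were compared with mature luminal (ML) cells of wild-type (WT) mouse mammary glands, across all genes of the deposited count table. The members were the 4 WT LP libraries and the 4 WT ML libraries, chosen by their labels, and made up 8 of the 24 libraries of the series. The other 16 libraries came from WT basal cells and from basal, LP and ML cells of ID4 knockout (KO) mice. All mice were adult females of the FVB/N strain, 10 to 12 weeks old and at estrus, and carried no transgene or treatment that the labels name. Each replicate pooled the glands of 4 to 8 mice, and both populations were sorted from the pooled cells, so the LP and ML libraries of 1 number are treated as 1 pool. Live cells negative for lineage markers were sorted as CD24+ and CD29 low, and split by CD61 into LP (CD61+) and ML (CD61-). Because CD61 is the product of Itgb3, the difference in Itgb3 follows from the sort and is given only as a check. RNA input was small, 0.5 to 2 ng a library, and the cDNA was amplified with a NuGEN Ovation kit before sequencing.

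Luminal progenitors line the ducts and alveoli, hold little of the ovarian hormone receptors, and are known as the source of the secretory alveolar cells that make milk under prolactin. Mature luminal cells include the cells that sense estrogen, progesterone and prolactin and pass the signal on to their neighbours through secreted factors such as amphiregulin, WNT4 and RANKL. Both kinds of cell share keratins, E-cadherin and tight junctions, and are set apart by transcription factors, ELF5 and SOX10 on the progenitor side and ESR1, FOXA1 and TBX3 on the hormone-sensing side.

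Values below are expected counts scaled to the library size (CPM) across these 8 libraries, and fold changes are log2 of LP over ML with their standard error (SE). Adjusted p-values are those of edgeR's quasi-likelihood test, two-sided, with Benjamini-Hochberg adjustment over all 11920 tested genes, and a gene is called below 0.05. Unless the pool is named as a block, the test does not pair the LP and ML libraries of a pool. Differences between pools then add to the spread within each population. Library totals ran from 4227096 to 7246462 counts in LP and from 5474258 to 6958208 counts in ML, and mitochondrial ribosomal RNA took 16.4% to 28.2% of counts in LP and 17.7% to 34.4% in ML. The pools are the replicates, and in bulk libraries of this kind fewer cells of a type and less RNA per cell cannot be told apart.

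The defining markers followed the labels. Itgb3 (chr11:104608000-104670476, plus strand, mm10) had 221, 183, 155 and 169 CPM in LP, against 2.63, 5.18, 4.02 and 1.44 CPM in ML. Elf5, a transcription factor of the alveolar lineage that was not used in the sort, had 204, 331, 178 and 142 CPM in LP, against 6.27, 15.9, 30.9 and 20.5 CPM in ML (log2 fold change 3.55 ± 0.43 (SE), adjusted p = 0.000102). Prlr, the prolactin receptor (chr15:10177238-10349180, plus strand), had 440.5, 504, 432 and 619.9 CPM in LP, against 6063, 5423, 7245 and 6186 CPM in ML (log2 fold change -3.64 ± 0.24 (SE), adjusted p = 3.23e-06). In all 3 genes the LP and ML libraries did not overlap. Of the other genes of the sort, Cd24a had 769, 1224, 1130.4 and 964 CPM in LP, against 1704, 2782, 1539 and 2814 CPM in ML, so it was lower in LP without overlap (log2 fold change -1.11 ± 0.26 (SE), adjusted p = 0.00773), although both populations were sorted as CD24+. Itgb1, which encodes CD29, had 210.02 to 274 CPM in LP against 243 to 329 CPM in ML and did not pass (adjusted p = 0.274). Id4, the gene deleted in the KO mice, had at most 1.41 CPM in any of these 8 libraries and was not tested. The plot of CPM by library shows 10 of the genes that set the populations apart.

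**Figure D1:**
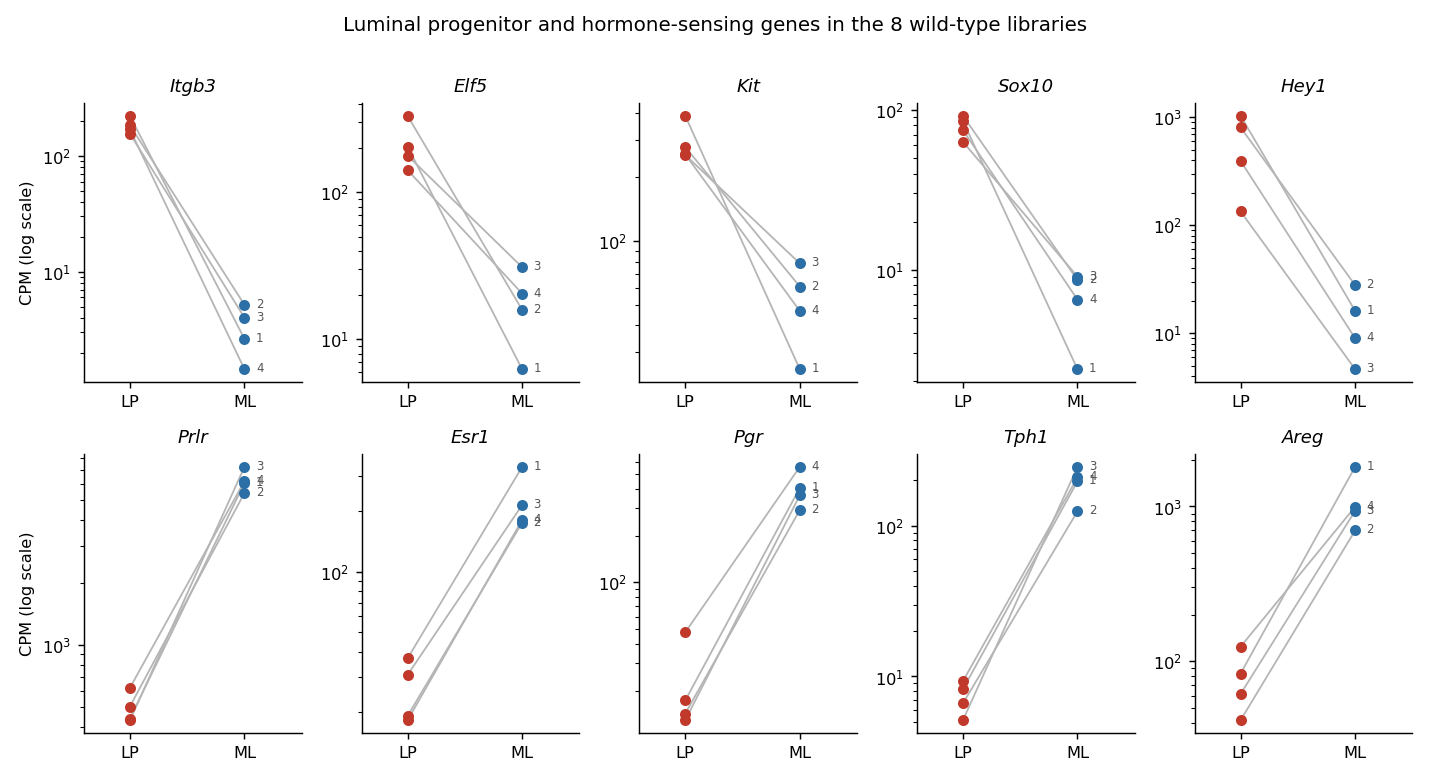
Level of 10 genes in each of the 8 wild-type libraries, as CPM on a log axis, with LP in red on the left and ML in blue on the right of each panel; a grey line joins the LP and ML library of 1 pool of mice and the small number is the replicate. The upper genes lie higher in LP and the lower genes lower in LP in all 4 pools, with no overlap between the populations, as for Prlr at 432 to 620 CPM in LP and 5423 to 7245 CPM in ML.

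Of the 11920 genes tested, 2449 were called (20.5%), 1255 higher in LP (10.5%) and 1194 lower in LP (10.0%). Among the calls, 1060 were at least 2-fold higher in LP and 945 at least 2-fold lower, and 245 and 230 passed 8-fold in these directions. The median log2 fold change over all tested genes was -0.03. LP libraries correlated with each other at 0.888 to 0.936 (Spearman) and ML libraries at 0.888 to 0.962, while LP with ML gave 0.697 to 0.815. All pairs used the same set of genes above a minimum mean CPM, on a scaling of all 24 libraries. The first principal component held 55.5% of the variance and put the 4 LP libraries on 1 side and the 4 ML libraries on the other. The second, with 13.6%, put replicates 1 and 2 of both populations opposite replicates 3 and 4, and the labels give no batch for these numbers.

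**Figure D2:**
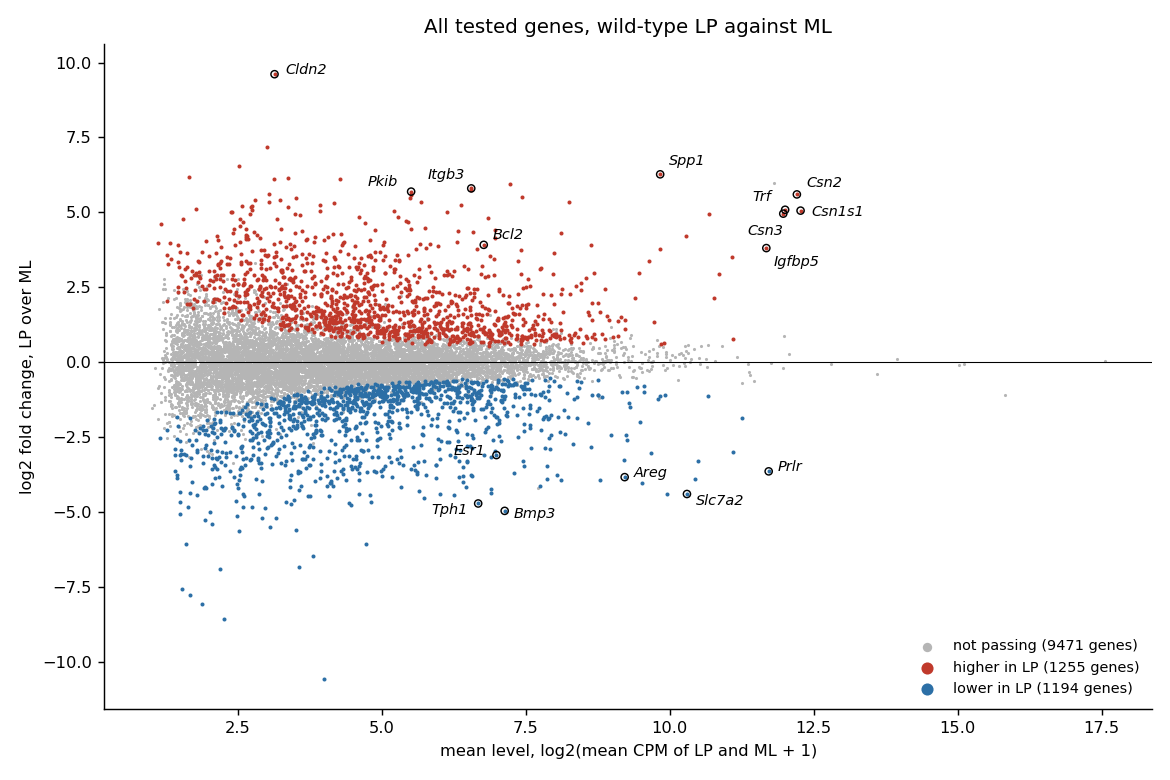
Log2 fold change of LP over ML against the mean level, log2(mean CPM of LP and ML + 1), for the 11920 tested genes; red points are the 1255 genes higher in LP, blue points the 1194 genes lower in LP, grey points those that did not pass, and 16 circled genes are named. Csn2, Csn1s1, Csn3 and Trf lie at the upper right and Prlr at the lower right, while Cldn2, at 0 in every ML library, is at the top with a fitted value that depends on the prior count.

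The direction of the calls was also counted by pool. The genes were called from these same libraries, so agreement between pools follows largely from that choice and is no separate test. Of the 2449 genes, 2398 (97.9%) lay on the same side in all 4 pools, and the libraries of the 2 populations did not overlap for 2194, against 2950 (24.7%) of all tested genes. Replicates 1 and 2 alone gave 1436 calls and replicates 3 and 4 alone gave 2324. The 2429 called genes that both pairs could test had the same sign in both, and 951 genes were called in each pair by itself. Leaving out 1 library at a time left between 1955 and 2449 calls, and 1586 genes (64.8%) were called in all 8 of these fits. These fits did not pair the libraries either, so a lost call can reflect differences between pools. With the pool as a block, 3026 genes were called, among them 2419 of the 2449. Against the WT basal libraries, on a scaling of all 24 libraries, 883 of the 1255 genes higher in LP had their highest WT mean in LP and 372 (29.6%) in basal cells. Of the 1194 genes lower in LP, 1010 had it in ML and 184 (15.4%) in basal cells.

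The gene lists described next were counted on these calls, and the share of members called is to be read against the 10.5% and 10.0% of all tested genes.

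**Figure D3:**
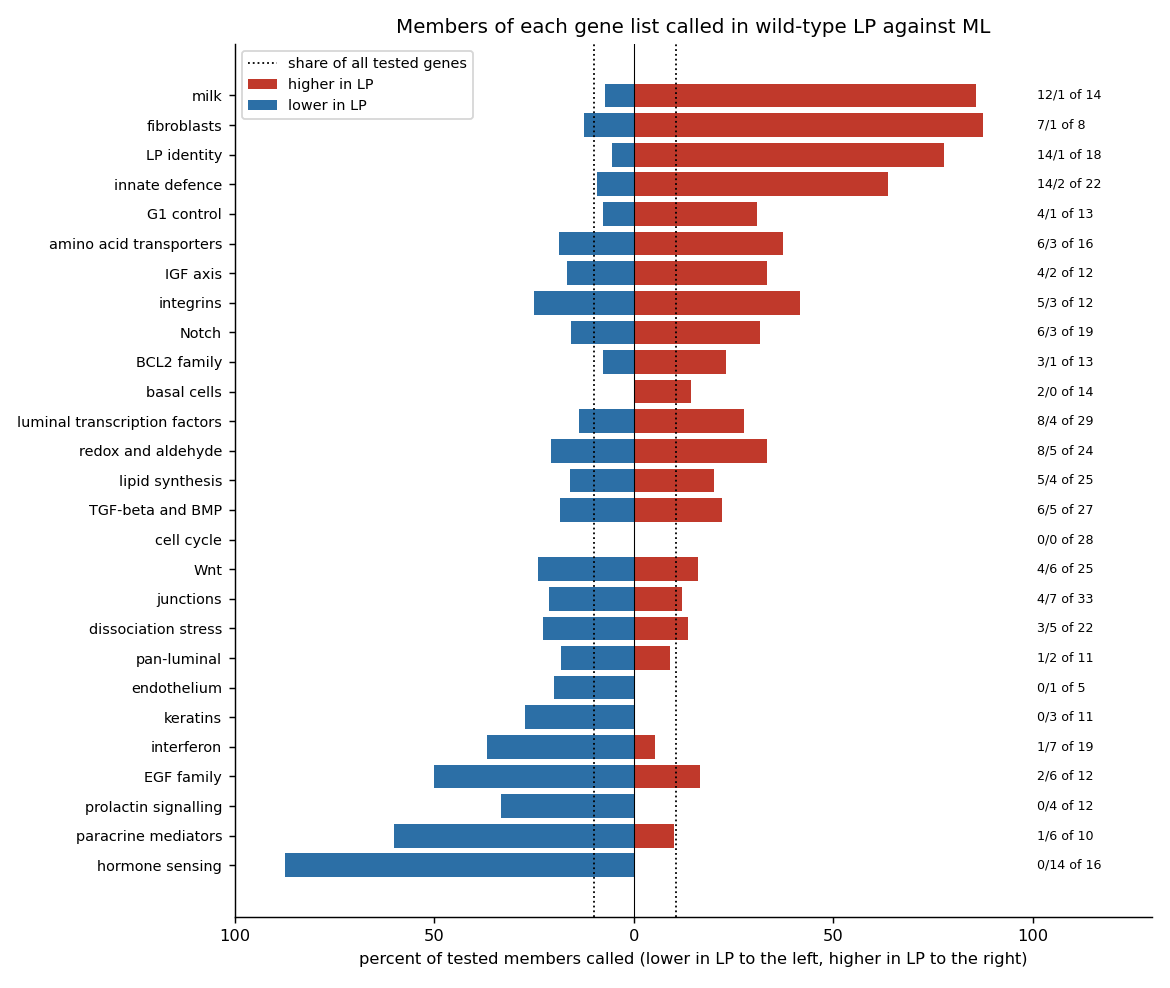
Percent of the tested members of each list that were called, lower in LP to the left in blue and higher in LP to the right in red, with dotted lines at 10.0% and 10.5% for all tested genes; numbers at the right give the members higher, the members lower and the members tested. Milk, fibroblast, LP identity and innate defence lists reach furthest to the right, and hormone sensing, paracrine mediators and the EGF family furthest to the left.

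Among called genes without overlap that had a mean of at least 10 CPM in the higher population and a median count of at least 1 in the lower one, Spp1 led the fold changes on the LP side. This gene, which encodes the secreted phosphoprotein osteopontin, had 1695, 3924, 446 and 1125 CPM in LP, against 11.3, 65.6, 8.44 and 8.08 CPM in ML (log2 fold change 6.27 ± 0.94 (SE), adjusted p = 0.000791). Apod, a lipid-binding apolipoprotein, had 337, 563, 68.8 and 193 CPM in LP, against 0.877, 14.3, 3.82 and 0.433 CPM in ML (log2 fold change 5.94 ± 1.04 (SE), adjusted p = 0.00298). Pkib, an inhibitor of cAMP-dependent protein kinase, had 62.3, 123, 96.6 and 67.1 CPM in LP, against 0.877, 2.07, 3.01 and 1.01 CPM in ML (log2 fold change 5.69 ± 0.41 (SE), adjusted p = 5.39e-06). These 3 genes did not overlap between the populations, and replicate 2 was highest in both populations for Spp1 and Apod. Cck, the peptide hormone cholecystokinin, had 95.5, 146, 36.6 and 70.1 CPM in LP, against 1.63, 3.798, 0.804 and 1.01 CPM in ML (log2 fold change 5.58 ± 0.53 (SE), adjusted p = 2.19e-05). Cyp24a1, the enzyme that breaks down active vitamin D, had 109, 98.7, 42.7 and 94.8 CPM in LP, against 0.376, 5.87, 0.201 and 1.299 CPM in ML (log2 fold change 5.50 ± 0.71 (SE), adjusted p = 0.000196), and Vdr, the vitamin D receptor, was also higher in LP (log2 fold change 1.82 ± 0.26 (SE), adjusted p = 0.000337). Lao1, an L-amino acid oxidase known from mouse milk, had 104, 547, 45.9 and 26.5 CPM in LP, against 0.627, 12.4, 0.603 and 0 CPM in ML and an adjusted p of 0.0397. Replicate 2 held the highest Lao1 level of each population, and the call was lost without LP replicates 1 or 3 or ML replicates 1, 3 or 4 (adjusted p 0.056 to 0.123), while with the pool as a block its adjusted p was 9.61e-07. The rule also named Dpt and Pi16, which are on the fibroblast list described below. Cldn2, a pore-forming claudin outside that set because it was undetected in ML, had 13.2, 25.3, 7.32 and 16.5 CPM in LP libraries and 0 in every ML library, where 3 counts correspond to 0.431 to 0.548 CPM of the library total.

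The 10 genes furthest on the other side under the same conditions, with predicted genes left out, included Tph1, Bmp3 and Calca. Tph1, the rate-limiting enzyme of serotonin synthesis (chr7:46644641-46672537, minus strand), had 8.23, 6.62, 5.12 and 9.31 CPM in LP, against 198, 124.8, 247 and 209.5 CPM in ML (log2 fold change -4.71 ± 0.28 (SE), adjusted p = 1.83e-06). Bmp3, a ligand of the bone morphogenetic protein family, had 5.78, 2.89, 12.9 and 13.5 CPM in LP, against 179.6, 200.4, 467 and 232 CPM in ML (log2 fold change -4.96 ± 0.49 (SE), adjusted p = 2.85e-05). Pappa, a protease that cleaves insulin-like growth factor binding proteins, had 1.11, 1.53, 0 and 3.05 CPM in LP, against 63.9, 20.03, 50.4 and 28.3 CPM in ML (log2 fold change -4.76 ± 0.61 (SE), adjusted p = 0.000155). None of these overlapped, and Pappa was near 0 in LP. Acpp, an acid phosphatase, had 0.8603, 0.3397, 2.44 and 2.57 CPM in LP, against 40.1, 19.3, 65.3 and 33.3 CPM in ML (log2 fold change -4.71 ± 0.55 (SE), adjusted p = 7.74e-05). Calca, the gene of calcitonin and of its related peptide, had 1.35, 0, 1.46 and 0.1604 CPM in LP, against 101.3, 1.899, 56.1 and 41.9 CPM in ML; ML replicate 2, at 1.90 CPM, lay close to the LP libraries (log2 fold change -6.07 ± 1.06 (SE), adjusted p = 0.00162). Tmprss6, a membrane serine protease, had 0 to 1.02 CPM in LP, against 6.35 to 16.9 CPM in ML, and Ctsr, a cathepsin known from mouse placenta, 0 to 0.642 CPM in LP, against 8.15 to 40.8 CPM in ML. Clca1, Fer1l4 and Wfdc12 completed the list, at no more than 1.72 CPM in any LP library. Slc16a5 and Dpep2 were at 0 in every LP library and had 8.52, 4.32, 10.05 and 7.22 CPM and 2.51, 6.21, 1.81 and 4.62 CPM in ML libraries. Pcdha12 and an identifier that shares the name Dst were also at 0 in LP, and both are uncertain, since protocadherin alpha genes share exons and the identifier may share reads with Dst itself.

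Ranked by CPM, which is not corrected for gene length, 5 genes led the calls higher in LP at 2-fold or more, and they were 3 caseins with Trf and Igfbp5. Trf, transferrin, the iron carrier of plasma and milk, had 9569, 12467, 4129 and 5707 CPM in LP, against 123, 369.6, 238 and 207 CPM in ML (log2 fold change 5.09 ± 0.45 (SE), adjusted p = 1.31e-05). Igfbp5, a binding protein of insulin-like growth factors known to act in the involuting gland, had 6894, 6566, 3979.9 and 6981 CPM in LP, against 248, 490.1, 593 and 412 CPM in ML (log2 fold change 3.81 ± 0.32 (SE), adjusted p = 1.03e-05). Neither gene overlapped between the populations. The 5 leading genes lower in LP were Prlr, Cd164, Abhd2, Slc12a2 and Ptn. Cd164, a sialomucin, had 337, 493, 491 and 614 CPM in LP, against 1693, 4377, 3859 and 5649 CPM in ML (log2 fold change -3.01 ± 0.35 (SE), adjusted p = 6.98e-05). Slc12a2, the sodium, potassium and chloride cotransporter known as NKCC1, had 117, 230.5, 252 and 477 CPM in LP, against 1084, 2421, 1509 and 5439.7 CPM in ML (log2 fold change -3.28 ± 0.53 (SE), adjusted p = 0.000916). Ptn, the heparin-binding growth factor pleiotrophin, had 78.4, 233, 74.4 and 319.6 CPM in LP, against 1560.1, 3885, 1754 and 3205 CPM in ML (log2 fold change -3.88 ± 0.51 (SE), adjusted p = 0.000206). Abhd2, a hydrolase, had 703 to 1505 CPM in LP, against 2492 to 5832 CPM in ML (log2 fold change -1.85 ± 0.31 (SE), adjusted p = 0.000986). In all 5 the lowest ML library lay above the highest LP library.

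Of 18 LP identity genes, all tested, 14 were higher in LP, 1 was lower and 3 did not pass, with a median log2 fold change of 2.32. The list was written with earlier results of these data known. Itgb3, whose difference follows from the sort, is counted among the 14 and in the median. Sox10, a factor of progenitor and neural crest cells, had 85.4, 91.9, 63.2 and 74.8 CPM in LP, against 2.38, 8.63, 9.04 and 6.49 CPM in ML (log2 fold change 3.59 ± 0.36 (SE), adjusted p = 2.85e-05). Ehf, an ETS factor related to Elf5, had 408, 439, 329 and 291 CPM in LP, against 41.4, 76.1, 94.8 and 88.2 CPM in ML (log2 fold change 2.29 ± 0.26 (SE), adjusted p = 6.77e-05). Cd14, a receptor for bacterial lipopolysaccharide and a known surface marker of progenitors, had 257, 257, 113 and 116 CPM in LP, against 29.4, 27.6, 24.1 and 14.3 CPM in ML (log2 fold change 2.96 ± 0.34 (SE), adjusted p = 6.77e-05). The populations were separate for all 3, and Cd14 in LP was higher in replicates 1 and 2 than in replicates 3 and 4. Kit, the receptor of stem cell factor, had 389.7, 278, 255 and 256 CPM in LP, against 24.8, 60.9, 78.4 and 46.8 CPM in ML, and Hey1, a target of Notch signalling, 1031, 805, 134 and 394 CPM in LP, against 16.04, 27.8, 4.62 and 8.95 CPM in ML. Further members that were called, with levels in CPM, were Foxc1 (16.5 to 32.6 CPM in LP against 2.598 to 7.08 CPM in ML), Tnfrsf11a, the receptor of RANKL (25.3 to 77.2 CPM in LP against 0 to 9.32 CPM in ML), Bcl11a (5.13 to 18.7 CPM in LP against 1.81 to 3.51 CPM in ML) and Cebpb (16.1 to 28.9 CPM in LP against 2.01 to 6.63 CPM in ML). Slpi, a secreted inhibitor of leukocyte proteases, went the other way with 5.78, 5.61, 6.098 and 2.25 CPM in LP, against 90.4, 65.8, 47.6 and 27.3 CPM in ML (log2 fold change -3.55 ± 0.42 (SE), adjusted p = 7.58e-05). Aldh1a3, a retinaldehyde dehydrogenase, had 57.3, 22.4, 35.6 and 36.6 CPM in LP, against 5.39, 9.67, 37.98 and 15.4 CPM in ML, and ML replicate 3 lay among the LP libraries. It did not pass (adjusted p = 0.124), nor did Creb5 (0.0787) and Sox9 (0.105), and with the pool as a block the adjusted p-values of the 3 were 0.0423, 0.00199 and 0.0277. Sox9 then stood lower in LP, at 218 to 408 CPM in LP against 339 to 696 CPM in ML.

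Hormone-sensing genes showed the opposite pattern as a group, with 14 of 16 tested members lower in LP, none higher and a median log2 fold change of -3.36. Greb1, Spdef, Agr2 and Itgae were too low to test. Esr1, estrogen receptor alpha, had 37.1, 19.2, 30.7 and 18.3 CPM in LP, against 332, 175, 215 and 181 CPM in ML, and Pgr, the progesterone receptor, 17.3, 14.3, 12.9 and 47.7 CPM in LP, against 406, 293, 364 and 555 CPM in ML. Foxa1, a factor that opens chromatin for the estrogen receptor, had 9.46, 18.7, 3.17 and 18.3 CPM in LP, against 199, 199, 155 and 134 CPM in ML. All 3 were separate between the populations, and Pgr in LP was highest in replicate 4. Tbx3, a T-box factor needed for the mammary bud, had 8.36, 9.51, 4.88 and 16.4 CPM in LP, against 227, 157, 136 and 109.8 CPM in ML (log2 fold change -3.99 ± 0.36 (SE), adjusted p = 1.38e-05). Prom1, the membrane glycoprotein CD133, had 5.65, 13.4, 8.54 and 16.4 CPM in LP, against 137, 323, 158 and 284 CPM in ML (log2 fold change -4.36 ± 0.39 (SE), adjusted p = 1.4e-05). Ly6a, the surface antigen Sca-1, had 20.6, 26.7, 13.9 and 33.4 CPM in LP, against 296, 184, 145 and 227 CPM in ML (log2 fold change -3.16 ± 0.30 (SE), adjusted p = 2.19e-05). Prom1 and Ly6a are both known surface markers of hormone-receptor-positive luminal cells. Levels of other called members were 3.66 to 18.7 CPM in LP against 108 to 370.1 CPM in ML for Cited1, 3.903 to 12.04 CPM in LP against 43.01 to 160.2 CPM in ML for Myb, 19.3 to 109 CPM in LP against 292 to 1244 CPM in ML for Stc2 and 8.85 to 28.4 CPM in LP against 74.4 to 189.9 CPM in ML for S100a6. Gata3, a factor needed by all luminal cells, had 77.3, 91.6, 58.8 and 75.9 CPM in LP, against 275, 213, 73.3 and 74.03 CPM in ML and did not pass (adjusted p = 0.0716, or 0.0439 with the pool as a block). Its log2 fold change was -1.50 in replicates 1 and 2 and -0.14 in replicates 3 and 4. Xbp1 had 102.4 to 217 CPM in LP against 94.9 to 124.8 CPM in ML (adjusted p = 0.478).

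Of 10 tested paracrine mediators, the factors by which hormone-sensing cells are known to signal, 6 were lower in LP and 1 higher, with a median of -2.26. Areg, amphiregulin, a ligand of the epidermal growth factor (EGF) receptor and a known target of estrogen in the gland, had 83.3, 41.6, 61.5 and 124 CPM in LP, against 1804, 700.01, 938 and 996 CPM in ML (log2 fold change -3.83 ± 0.38 (SE), adjusted p = 2.83e-05). Wnt4, a known target of progesterone, had 12.5, 10.7, 7.56 and 9.47 CPM in LP, against 167, 95.98, 94.4 and 84.7 CPM in ML (log2 fold change -3.44 ± 0.28 (SE), adjusted p = 9.25e-06). Tnfsf11, which encodes RANKL, had 0, 0.5096, 0.244 and 0 CPM in LP, against 65.3, 4.14, 11.5 and 4.76 CPM in ML, with ML replicate 1 far above the other 3. Its receptor Tnfrsf11a stood on the LP side, as given above. Ptges, an enzyme of prostaglandin E2 synthesis, was the exception, with 148, 148, 172 and 134 CPM in LP, against 14.8, 10.7, 52.8 and 31.5 CPM in ML (log2 fold change 2.46 ± 0.41 (SE), adjusted p = 0.000986). The other 3 members lower in LP were Tph1 and Calca, given above, and Ctsd, a lysosomal protease, whose call was lost without LP replicates 1, 3 or 4 or ML replicates 1 or 3 (highest adjusted p 0.0971). Without LP replicate 2 there were 2 members higher in LP. Il4, Il13, Ihh and Adamts18 were at or below 1.19 CPM on average in both populations and were not tested.

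Downstream of the prolactin receptor, genes were called in 1 direction. Of 12 tested genes of prolactin signalling, 4 were lower in LP, none was higher and the median was -0.39. Stat5a, the main factor that prolactin activates, had 86.2, 92.2, 75.1 and 88.6 CPM in LP, against 193, 82.2, 56.3 and 85.9 CPM in ML (adjusted p = 0.57), and Stat5b had 16.8 to 46.03 CPM in LP against 18.3 to 34.5 CPM in ML (adjusted p = 0.803). Jak2, the kinase bound to the receptor, had 55.1, 57.4, 66.6 and 38.3 CPM in LP, against 127, 103, 101.7 and 158 CPM in ML (log2 fold change -1.17 ± 0.23 (SE), adjusted p = 0.00253). Socs3, a feedback inhibitor, had 58.3, 38.7, 20.2 and 39.3 CPM in LP, against 292, 241, 103 and 100.9 CPM in ML (log2 fold change -2.23 ± 0.39 (SE), adjusted p = 0.00156). The populations overlapped for both Stat5 genes and were separate for Jak2 and Socs3. Ptpn6, the phosphatase SHP-1, was lower in LP at 1.95 to 3.06 CPM in LP against 5.63 to 15.7 CPM in ML (log2 fold change -2.05 ± 0.47 (SE), adjusted p = 0.00773). Socs2, at 5.85 to 21.8 CPM in LP against 15.9 to 59.02 CPM in ML, passed in the fit of all 8 libraries (adjusted p = 0.039) and not without LP replicates 2, 3 or 4 or ML replicates 1 or 3 (adjusted p 0.0847 to 0.1246).

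Milk genes were higher in LP, the population with the lower Prlr level. Of 20 genes of milk proteins and milk fat secretion, 14 were tested, 12 were higher in LP and 1 was lower, with a median log2 fold change of 4.35. The other 6, Wap, Glycam1, Csn1s2b, Lpo, Pthlh and Fabp3, were too low to test. Summed over the list, LP libraries held 20754, 106948, 20403 and 15283 CPM, against 513, 2936, 1239 and 669.6 CPM in ML libraries. Replicate 2 was highest in both populations, and the LP and ML sums did not overlap.

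The promoters of 3 caseins are shown with 1 window of Prlr. They were chosen because casein and Prlr levels differed in opposite directions between the populations (Csn1s2a without passing), and because STAT5, which prolactin activates, binds the letters TTCNNNGAA. The sequences are RefSeq promoter windows of build GRCm38.p6, from 250 bases before to 50 bases after a start site, 5′ to 3′ on the gene's strand, with each match to TTCNNNGAA in capitals. Both strands were searched, and the letters read the same on each.
Csn1s1, chr5:87665958-87666257, plus strand: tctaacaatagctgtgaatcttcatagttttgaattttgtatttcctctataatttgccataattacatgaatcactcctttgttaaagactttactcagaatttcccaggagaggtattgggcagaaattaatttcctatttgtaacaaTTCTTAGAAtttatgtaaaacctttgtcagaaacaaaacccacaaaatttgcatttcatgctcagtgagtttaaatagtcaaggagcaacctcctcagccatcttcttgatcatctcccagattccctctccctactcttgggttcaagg
Csn2, chr5:87699376-87699675, minus strand: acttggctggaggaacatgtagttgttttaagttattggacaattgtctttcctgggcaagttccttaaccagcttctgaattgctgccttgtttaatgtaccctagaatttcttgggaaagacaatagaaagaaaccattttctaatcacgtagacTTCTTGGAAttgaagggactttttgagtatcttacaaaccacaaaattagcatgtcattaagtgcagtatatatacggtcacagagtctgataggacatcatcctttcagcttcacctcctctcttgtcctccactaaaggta
Csn1s2a, chr5:87774200-87774499, plus strand: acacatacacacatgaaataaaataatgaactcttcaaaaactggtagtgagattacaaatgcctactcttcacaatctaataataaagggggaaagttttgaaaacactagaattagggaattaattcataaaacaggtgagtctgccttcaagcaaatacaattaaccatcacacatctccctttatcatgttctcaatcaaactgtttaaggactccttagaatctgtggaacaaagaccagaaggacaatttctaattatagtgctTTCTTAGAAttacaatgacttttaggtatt
Prlr, chr15:10223656-10223955, plus strand, 1 of its 3 windows in the table: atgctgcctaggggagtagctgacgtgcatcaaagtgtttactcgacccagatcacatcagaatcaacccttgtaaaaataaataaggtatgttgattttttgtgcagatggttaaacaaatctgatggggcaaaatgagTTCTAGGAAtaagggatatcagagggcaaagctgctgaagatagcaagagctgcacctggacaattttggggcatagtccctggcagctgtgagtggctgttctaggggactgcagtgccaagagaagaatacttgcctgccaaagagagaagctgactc
The match began 100 bases before the start site in Csn1s1, 93 bases before it in Csn2, at base 20 after it in Csn1s2a and 110 bases before it in the Prlr window shown. The remaining Prlr windows, among them that at the annotated start of the gene, held no match and are not shown. Of 16 milk list genes with a window in the table, 4 held a match (Glycam1 is the other one), against 2582 of all 27025 genes (9.55%). Among the 881 genes higher in LP that matched the table the share was 8.29%, among the 857 lower in LP 8.87%, and among the 8497 tested genes 8.40%. A match describes these letters and is not shown to be a bound site, and the motif was chosen with the results known.

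The caseins lie together on chromosome 5, Csn1s1 at chr5:87666208-87682578, plus strand, Csn2 at chr5:87692624-87699630, minus strand and Csn3 at chr5:87925579-87932665, plus strand (mm10). Csn2, beta casein, had 1920.03, 29801, 4389 and 914 CPM in LP, against 24.7, 573, 106 and 59.9 CPM in ML (log2 fold change 5.60 ± 1.49 (SE), adjusted p = 0.0289). Csn1s1, alpha casein, had 3731, 26311, 5751 and 2564 CPM in LP, against 37.1, 735, 229 and 149 CPM in ML (log2 fold change 5.06 ± 1.03 (SE), adjusted p = 0.00506). Csn3, kappa casein, had 6891, 13803, 4146 and 6237 CPM in LP, against 82.1, 503, 311 and 104 CPM in ML (log2 fold change 4.96 ± 0.63 (SE), adjusted p = 0.000147). The 3 were separate between the populations, and replicate 2 held the highest level in LP and in ML. Within a pool, LP exceeded ML for Csn2 by 77.8, 52.0, 41.4 and 15.3 times in replicates 1 to 4, while the Csn2 level of LP itself spanned 914 to 29801 CPM between pools. The Csn2 call was lost without LP replicate 3 or ML replicates 1, 3 or 4 (adjusted p 0.0597 to 0.121), and the Csn1s1 call without ML replicate 3 (adjusted p 0.0507). Csn1s2a, chosen here after its values were seen, had 1930.1, 24431, 1547 and 447 CPM in LP, against 17.3, 414, 19.3 and 3.61 CPM in ML. It did not pass (adjusted p = 0.084), although the populations did not overlap and LP exceeded ML by 112, 59.0, 80.2 and 124 times within the pools. With the pool as a block, the adjusted p-values were 4.51e-07 for Csn1s2a, 2.3e-06 for Csn2 and 4.2e-06 for Csn1s1.

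**Figure D4:**
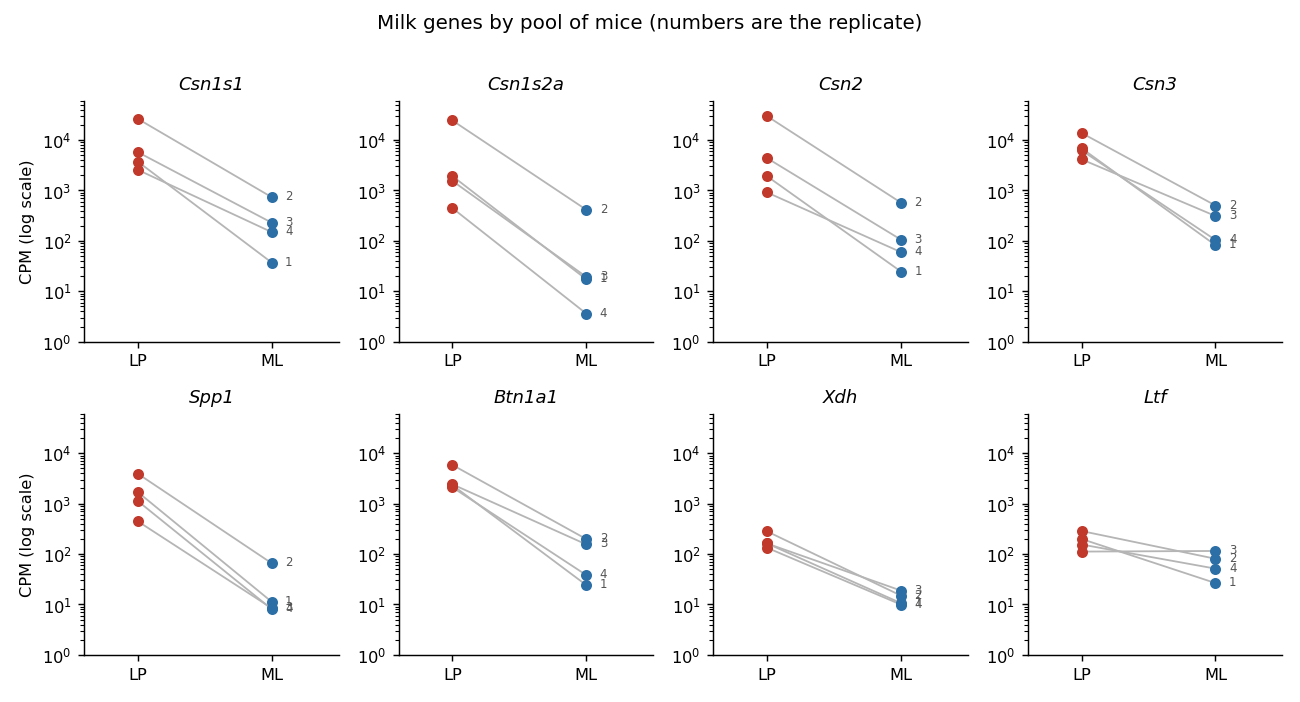
Level of 8 milk genes as CPM on a log axis, LP in red on the left and ML in blue on the right, with a line for each pool of mice. Each casein lies higher in LP in all 4 pools, at levels that differ between pools, as for Csn1s2a, where pool 2 is highest in LP (24431 CPM) and in ML (414 CPM); Ltf in pool 3 is level between the populations.

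Genes of milk fat globule secretion were higher in LP as well. Xdh, xanthine oxidoreductase, a protein of the globule membrane, had 162, 282, 162 and 133 CPM in LP, against 10.7, 15.02, 18.9 and 9.96 CPM in ML (log2 fold change 3.77 ± 0.30 (SE), adjusted p = 8.93e-06). Plin2, which coats lipid droplets, had 215, 371, 355 and 254 CPM in LP, against 28.8, 37.6, 43.4 and 46.8 CPM in ML (log2 fold change 2.93 ± 0.24 (SE), adjusted p = 9.31e-06). Mfge8, a secreted globule protein that marks dying cells for uptake, had 1487, 1497, 856 and 1191 CPM in LP, against 172, 193, 161 and 112 CPM in ML (log2 fold change 2.98 ± 0.25 (SE), adjusted p = 1.03e-05). Btn1a1, butyrophilin, had 2330.1, 5848, 2419 and 2104 CPM in LP, against 24.2, 198, 155 and 38.2 CPM in ML. Each of these was separate between the populations. Muc1, a membrane mucin, had 97.2 to 159 CPM in LP, against 8.27 to 26.9 CPM in ML (log2 fold change 2.90 ± 0.34 (SE), adjusted p = 8.27e-05), and Lalba, alpha-lactalbumin of lactose synthesis, 4.88 to 35.3 CPM in LP, against 0 to 0.691 CPM in ML. Wap, whey acidic protein, reached 16.8 CPM in LP replicate 2 and at most 1.75 CPM in the other 7 libraries. Aqp5, a water channel, was lower in LP with 22.5, 27.5, 10.98 and 19.9 CPM in LP, against 62.4, 78.9, 26.7 and 70.1 CPM in ML (log2 fold change -1.55 ± 0.35 (SE), adjusted p = 0.00681), where LP replicate 2 lay just above ML replicate 3. Ltf, lactoferrin, an iron-binding milk protein with antibacterial action, had 199, 286, 112 and 155 CPM in LP, against 26.6, 80.6, 115 and 51.4 CPM in ML (adjusted p = 0.0205), and the call was lost without LP replicate 2 or ML replicate 4 (highest adjusted p 0.0684). Its log2 fold change was 2.23 in replicates 1 and 2 and 0.67 in replicates 3 and 4.

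Innate defence genes leaned to LP as well. Of 22 tested members, 14 were higher in LP and 2 lower, with a median of 2.09, and 7 more in the table were too low to test. Lcn2, lipocalin 2, which withholds iron from bacteria, had 2398, 2979, 1674 and 2354 CPM in LP, against 49.9, 160.03, 205 and 87.9 CPM in ML (log2 fold change 4.23 ± 0.41 (SE), adjusted p = 2.29e-05). C3, the central protein of the complement cascade, had 2095, 1983, 1638 and 1069.8 CPM in LP, against 73.2, 68.02, 155 and 198 CPM in ML (log2 fold change 3.78 ± 0.38 (SE), adjusted p = 2.88e-05). The populations were far apart for both. The 2 members lower in LP encode secreted proteins with WAP domains, Slpi (above) and Wfdc2, which had 11.4, 9.003, 2.68 and 7.38 CPM in LP, against 146, 115, 71.7 and 120.4 CPM in ML (log2 fold change -3.86 ± 0.37 (SE), adjusted p = 2.19e-05). Tlr1 is not analysed here. Immune cell markers were near 0 in both populations, with sums over the 11 genes in the table of 2.72 to 3.07 CPM in LP and 2.07 to 6.03 CPM in ML, and none of them could be tested.

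Genes of the Notch pathway, in which a ligand on 1 cell activates a receptor on the next, fell on both sides. Of 19 tested, 6 were higher in LP and 3 lower, with a median of 0.89. The receptor gene Notch1 had 291, 294, 116 and 239 CPM in LP, against 47.1, 93.2, 64.9 and 65.4 CPM in ML (log2 fold change 1.80 ± 0.30 (SE), adjusted p = 0.000946). Jag1, a ligand, had 6.76, 5.096, 5.12 and 7.38 CPM in LP, against 48.5, 49.5, 46.2 and 41.1 CPM in ML (log2 fold change -2.92 ± 0.25 (SE), adjusted p = 1.2e-05). Hey1, a target, was higher in LP (log2 fold change 5.36 ± 0.69 (SE), adjusted p = 0.000191), and its LP levels, given above, ranged from 134 CPM in replicate 3 to 1031 CPM in replicate 1. Notch1 and Hey1 thus stood on the LP side and Jag1 on the ML side, each without overlap. The naming rule picks only some of the 6 members higher in LP, so these genes do not sum up the pathway. Maml2, a coactivator, was higher in LP at 73.04 to 128 CPM in LP against 12.03 to 27.3 CPM in ML (log2 fold change 2.36 ± 0.28 (SE), adjusted p = 9.25e-05), while Maml3 was lower at 22.1 to 41.96 CPM in LP against 53.1 to 77.6 CPM in ML (log2 fold change -0.94 ± 0.25 (SE), adjusted p = 0.0159). Lfng, which adds sugars to Notch receptors, was at 0 to 0.732 CPM in LP against 1.59 to 17.7 CPM in ML (log2 fold change -4.13 ± 0.93 (SE), adjusted p = 0.00684).

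Of 25 tested Wnt pathway genes, 4 were higher in LP and 6 lower (median 0.24). Among ligands, Wnt5b was higher in LP with 39.5, 26.3, 17.8 and 23.1 CPM in LP, against 2.01, 1.899, 6.23 and 5.05 CPM in ML (log2 fold change 2.83 ± 0.44 (SE), adjusted p = 0.000572), and Wnt4 was lower, as given above. The receptor gene Fzd6 had 25.7, 26.2, 29.8 and 25.5 CPM in LP, against 73.3, 71.3, 60.1 and 56.7 CPM in ML (log2 fold change -1.29 ± 0.20 (SE), adjusted p = 0.000536). Tcf7l2, a transcription factor of the pathway, had 406, 489, 306 and 405 CPM in LP, against 92.5, 97.7, 80.2 and 65.4 CPM in ML (log2 fold change 2.26 ± 0.21 (SE), adjusted p = 1.78e-05). The 3 genes did not overlap between the populations, with Tcf7l2 and Wnt5b on the LP side. Sfrp1, a secreted inhibitor, had 6.51, 26.7, 5.37 and 7.701 CPM in LP, against 0, 0.863, 3.01 and 2.45 CPM in ML (adjusted p = 0.0268), and the call was lost without LP replicate 2 or ML replicate 2 (adjusted p 0.0704 to 0.119). Tcf7l1 also passed at 9.15 to 16.3 CPM in LP against 4.64 to 8.44 CPM in ML (adjusted p = 0.0441), and did not without LP replicates 1, 2 or 3 or ML replicates 1, 2 or 4 (adjusted p 0.0753 to 0.11). Without ML replicate 2 there were 2 members higher in LP. Lgr5, with a mean of 1.13 CPM in LP and 1.33 CPM in ML, was not tested.

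Members of the EGF family fell on both sides. Of 12 tested, 2 were higher in LP and 6 lower (median -0.93). Egfr, the receptor, had 105, 89.01, 115 and 84.7 CPM in LP, against 4.89, 18.8, 30.1 and 15.4 CPM in ML (log2 fold change 2.52 ± 0.40 (SE), adjusted p = 0.000751). Errfi1, a feedback inhibitor of that receptor, had 2181, 1747, 2970.3 and 4507 CPM in LP, against 286, 624, 918 and 774 CPM in ML (log2 fold change 2.13 ± 0.37 (SE), adjusted p = 0.00137). Tgfa, a ligand of the same receptor, had 3.56, 6.11, 12.9 and 15.2 CPM in LP, against 33.5, 28.8, 43.8 and 45.6 CPM in ML (log2 fold change -2.02 ± 0.41 (SE), adjusted p = 0.00355). Egfr and Errfi1 were higher in LP and Tgfa and Areg lower, all without overlap. The other ligands called, Nrg4 (2.46 to 4.63 CPM in LP against 8.396 to 16.7 CPM in ML) and Btc (2.68 to 9.71 CPM in LP against 14.7 to 23.9 CPM in ML), and the receptors Erbb2 (34.1 to 58.1 CPM in LP against 58.3 to 118 CPM in ML) and Erbb3 (99.5 to 156 CPM in LP against 199 to 292 CPM in ML) were also lower in LP. The Erbb2 call was lost without LP replicates 1 or 3 or ML replicates 1 or 2 (highest adjusted p 0.0755), and the Btc call without LP replicates 3 or 4 or ML replicate 3 (highest adjusted p 0.0769). Without ML replicate 3 the list gave 4 higher and 5 lower, and with the basal libraries in the fit 2 were lower. Nrg3 is not analysed here.

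Insulin-like growth factor genes gave 4 of 12 tested members higher in LP and 2 lower (median 1.08). Igf1r, the receptor, had 51.5, 29.7, 34.9 and 58.1 CPM in LP, against 8.15, 1.55, 9.04 and 5.77 CPM in ML (log2 fold change 2.83 ± 0.44 (SE), adjusted p = 0.000593). Irs2, an adaptor of insulin receptors, had 196, 173, 73.4 and 130.4 CPM in LP, against 26.1, 46.8, 25.9 and 21.2 CPM in ML (log2 fold change 2.26 ± 0.33 (SE), adjusted p = 0.000358). Both were higher in LP without overlap, as was Igfbp5. Pappa and Igf2r, which clears IGF2, were lower in LP, Igf2r at 113 to 138 CPM in LP against 171 to 287 CPM in ML (log2 fold change -0.80 ± 0.20 (SE), adjusted p = 0.011).

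In the TGF-beta and BMP families, 6 of 27 tested members were higher in LP and 5 lower (median -0.45). Tgfb2, a ligand, had 52.97, 81.02, 52.9 and 41.7 CPM in LP, against 6.02, 1.899, 11.1 and 10.4 CPM in ML (log2 fold change 2.96 ± 0.44 (SE), adjusted p = 0.000394). Bmpr1b, a BMP receptor, had 2.95, 2.38, 0.976 and 0.642 CPM in LP, against 32.2, 24.2, 49.4 and 21.4 CPM in ML (log2 fold change -4.13 ± 0.48 (SE), adjusted p = 6.77e-05). Id3, a helix-loop-helix inhibitor that BMP signals induce in many cells, had 2.83, 4.25, 1.71 and 5.94 CPM in LP, against 20.2, 34.01, 16.5 and 16.2 CPM in ML (log2 fold change -2.54 ± 0.42 (SE), adjusted p = 0.000946). Tgfb2 was higher in LP, and Bmpr1b and Id3 were lower together with Bmp3, all without overlap. The receptor gene Tgfbr2 was also lower in LP at 36.3 to 76.7 CPM in LP against 87.3 to 194 CPM in ML (log2 fold change -1.38 ± 0.28 (SE), adjusted p = 0.00403). Inhba, a subunit of activin, was lower at 2.704 to 6.42 CPM in LP against 9.399 to 52.1 CPM in ML (adjusted p = 0.0169), but not without ML replicate 2 (adjusted p 0.0749).

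Of 29 tested luminal transcription factors, 8 were higher in LP and 4 lower (median 0.20). Rora, a nuclear receptor, had 277, 318, 387 and 305 CPM in LP, against 44.2, 56.3, 85.8 and 35.6 CPM in ML (log2 fold change 2.54 ± 0.27 (SE), adjusted p = 3.86e-05). Vdr had 129, 227, 198 and 129 CPM in LP, against 35.1, 54.2, 64.5 and 39.5 CPM in ML, and Nfib, a nuclear factor known to act on milk genes, 911, 717, 837 and 697 CPM in LP, against 254, 252, 383 and 337 CPM in ML (log2 fold change 1.37 ± 0.20 (SE), adjusted p = 0.000425). None of these overlapped. Msx2, a homeobox factor of the developing gland, was lower in LP with 3.56, 1.19, 2.44 and 5.45 CPM in LP, against 24.6, 29.002, 15.9 and 21.4 CPM in ML (log2 fold change -2.82 ± 0.43 (SE), adjusted p = 0.000507). Klf4 and Grhl3 were lower as well, at 148 to 261 CPM in LP against 263 to 575 CPM in ML and 0 to 1.02 CPM in LP against 1.73 to 9.15 CPM in ML, and Elf1, at 88.1 to 168 CPM in LP against 135 to 239.5 CPM in ML, passed (adjusted p = 0.0437) but not without LP replicates 1, 2 or 4 or ML replicates 2, 3 or 4 (adjusted p 0.0742 to 0.116).

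Of 28 tested cell cycle genes, none was called in edgeR's fit and the median was 0.49. Leaving out ML replicate 2 gave 1 call, voom gave 1, and the pool as a block gave 4. Aurkb, a mitotic kinase, had 4.42, 10.2, 4.88 and 0.802 CPM in LP, against 0.1253, 3.798, 0.804 and 0.289 CPM in ML (adjusted p = 0.152, or 0.0294 with the block), and Cenpe, a motor of the centromere, 12.5 to 64.4 CPM in LP against 5.51 to 22.1 CPM in ML (adjusted p = 0.132, or 0.0046 with the block). Of 13 tested genes that control entry into the cycle, 4 were higher in LP and 1 lower (median 0.86). Cdk6, a kinase that drives entry, had 696, 433, 627 and 656 CPM in LP, against 96.7, 89.6, 103 and 98.9 CPM in ML (log2 fold change 2.64 ± 0.20 (SE), adjusted p = 6.72e-06). Rb1, the retinoblastoma gene whose product holds cells back until such kinases act, had 461, 449.6, 427 and 437 CPM in LP, against 27.3, 52.997, 90.02 and 62.6 CPM in ML (log2 fold change 2.93 ± 0.30 (SE), adjusted p = 3.3e-05). Myc had 183, 155, 218 and 370.3 CPM in LP, against 77.4, 68.5, 76.8 and 76.6 CPM in ML (log2 fold change 1.63 ± 0.26 (SE), adjusted p = 0.000628), and its relative Mycl had 1.23, 0.849, 0 and 1.93 CPM in LP, against 17.4, 29.3, 11.5 and 24.2 CPM in ML (log2 fold change -4.26 ± 0.59 (SE), adjusted p = 0.000267). Cdk6, Rb1 and Myc were higher in LP and Mycl lower, each without overlap.

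Of 13 tested genes of the BCL2 family, which governs cell death, 3 were higher in LP and 1 lower (median -0.62). Bcl2, which blocks death, had 242, 119, 198 and 251 CPM in LP, against 14.5, 11.05, 14.3 and 13.7 CPM in ML (log2 fold change 3.92 ± 0.27 (SE), adjusted p = 4e-06). Pmaip1, the death-promoting protein NOXA, had 0.123, 0.1699, 0.976 and 0 CPM in LP, against 8.396, 3.11, 3.82 and 5.48 CPM in ML (log2 fold change -4.18 ± 0.85 (SE), adjusted p = 0.00369). Bcl2 stood on the LP side and Pmaip1 on the ML side, without overlap. Bcl2l11, the death-promoting protein BIM, was also higher in LP at 129 to 227 CPM in LP against 82.7 to 102.4 CPM in ML (log2 fold change 0.91 ± 0.20 (SE), adjusted p = 0.00587). The list gave 2 higher and 2 lower without LP replicate 1, and 2 lower without ML replicate 3.

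Metabolic lists were split. Of 25 tested genes of lipid synthesis, 5 were higher in LP and 4 lower (median 0.04). Scd1, a desaturase of fatty acids, had 619.9, 770.5, 1071 and 700.3 CPM in LP, against 107, 114, 239 and 121 CPM in ML (log2 fold change 2.45 ± 0.29 (SE), adjusted p = 8.27e-05). Scd2, a related desaturase, was lower with 19.4, 54.9, 50.5 and 42.7 CPM in LP, against 96.5, 196, 132 and 118 CPM in ML (log2 fold change -1.70 ± 0.32 (SE), adjusted p = 0.0021). Dgat2, an enzyme of triglyceride synthesis, had 2.46, 6.96, 2.195 and 5.13 CPM in LP, against 33.6, 43.8, 41.2 and 53.97 CPM in ML (log2 fold change -3.35 ± 0.38 (SE), adjusted p = 5.84e-05). The 2 desaturases thus differed in opposite directions, each without overlap. Acaca, the first committed step of fatty acid synthesis, was higher in LP at 112 to 409.5 CPM in LP against 49.03 to 66.04 CPM in ML (log2 fold change 1.98 ± 0.33 (SE), adjusted p = 0.000873), and Elovl6, an elongase, at 34.3 to 47.4 CPM in LP against 12.1 to 16.7 CPM in ML. Fdft1, an enzyme of sterol synthesis, was lower in LP at 16.1 to 23.3 CPM in LP against 34.96 to 61.8 CPM in ML. The median of the list changed sign without ML replicates 1 or 3 (-0.01 and -0.07).

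Of 24 tested redox and aldehyde genes, 8 were higher in LP and 5 lower (median 0.14). Gpx3, a secreted glutathione peroxidase, had 133, 57.9, 40.2 and 124.8 CPM in LP, against 3075, 2015, 979 and 1475 CPM in ML (log2 fold change -4.40 ± 0.46 (SE), adjusted p = 4.45e-05). Gsr, which recycles glutathione, had 29.004, 35.2, 24.4 and 28.1 CPM in LP, against 202, 129, 139.8 and 160.05 CPM in ML (log2 fold change -2.43 ± 0.21 (SE), adjusted p = 1.26e-05). Gclc, which makes it, had 14.7, 25.8, 27.3 and 43.5 CPM in LP, against 99.6, 176, 201 and 167 CPM in ML (log2 fold change -2.53 ± 0.32 (SE), adjusted p = 0.000132). These 3 genes were lower in LP without overlap, and Gclm, the partner subunit of Gclc, was too, at 28.8 to 51.5 CPM in LP against 60.2 to 102.3 CPM in ML. Only some of the 8 members higher in LP are named by the rule, so the genes given here do not sum up the list. Mgst1, a membrane-bound glutathione transferase, was higher in LP with 260.4, 284, 166 and 156 CPM in LP, against 25.7, 45.1, 58.5 and 38.2 CPM in ML (log2 fold change 2.38 ± 0.29 (SE), adjusted p = 9.25e-05). The count depended on single libraries, with 5 higher and 7 lower without LP replicate 2 and 5 higher and 5 lower without ML replicate 4.

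Of 16 tested amino acid transporters, 6 were higher in LP and 3 lower (median -0.32). Slc7a2, a carrier of arginine and lysine, had 149, 61.8, 99.3 and 146 CPM in LP, against 3860.2, 1366, 2409 and 1968 CPM in ML (log2 fold change -4.40 ± 0.39 (SE), adjusted p = 1.26e-05). Slc43a2, a carrier of large neutral amino acids, had 133, 195, 109.8 and 100.6 CPM in LP, against 0.627, 6.21, 6.23 and 4.19 CPM in ML (log2 fold change 4.999 ± 0.50 (SE), adjusted p = 3.3e-05). Slc7a5, another such carrier, had 66.98, 103, 64.4 and 60.005 CPM in LP, against 16.2, 20.4, 19.9 and 16.02 CPM in ML (log2 fold change 2.02 ± 0.24 (SE), adjusted p = 7.8e-05). Slc43a2 and Slc7a5 were higher in LP, and Slc7a2 was lower together with Slc38a1, at 7.56 to 24.9 CPM in LP against 95.4 to 135 CPM in ML. None of the 4 overlapped. The third lower member was Slc6a6, a taurine carrier, at 15.1 to 49.7 CPM in LP against 46.2 to 196 CPM in ML (adjusted p = 0.0328), which did not pass without LP replicates 2 or 3 or ML replicates 1 or 3 (adjusted p 0.052 to 0.109). Without LP replicate 1 there were 5 members lower in LP, and without ML replicate 3 the median of the list was 0.05.

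Among 33 tested junction genes, 4 were higher in LP and 7 lower (median 0.11), and the claudins were divided. Claudins seal or open the spaces between epithelial cells. Cldn1, a sealing claudin, had 167, 189, 226 and 281 CPM in LP, against 5.39, 13.6, 59.3 and 36.9 CPM in ML (log2 fold change 2.91 ± 0.56 (SE), adjusted p = 0.00292). Cldn6 had 0.246, 2.89, 4.88 and 0.802 CPM in LP, against 52.01, 41.9, 48.02 and 65.2 CPM in ML (log2 fold change -4.67 ± 0.59 (SE), adjusted p = 0.000138), and Cldn10 had 4.92, 3.91, 1.71 and 2.41 CPM in LP, against 45.9, 35.04, 39.99 and 36.1 CPM in ML (log2 fold change -3.56 ± 0.34 (SE), adjusted p = 2.19e-05). Cldn1 was higher in LP, as was Cldn2, and Cldn6 and Cldn10 were lower, all without overlap. Gjb2, a gap junction protein, was higher in LP at 44.9 to 80.5 CPM in LP against 4.82 to 18.3 CPM in ML (log2 fold change 2.47 ± 0.42 (SE), adjusted p = 0.00115), and Dsc2, a desmosomal cadherin, was lower at 4.93 to 8.82 CPM in LP against 20.4 to 47.3 CPM in ML (log2 fold change -2.61 ± 0.34 (SE), adjusted p = 0.000155). Tjp3 passed as higher in LP at 14.1 to 36.3 CPM in LP against 8.23 to 15.2 CPM in ML (adjusted p = 0.0201), but not without LP replicates 1 or 2 or ML replicates 3 or 4 (adjusted p 0.0514 to 0.062).

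Of 11 tested keratins, 3 were lower in LP and none was higher (median -1.11). Krt7 had 32.8, 24.97, 54.6 and 83.6 CPM in LP, against 182, 244, 130.4 and 260.5 CPM in ML (log2 fold change -2.06 ± 0.35 (SE), adjusted p = 0.00121), and Krt19 347, 610.1, 657 and 681 CPM in LP, against 1163, 1154, 1073 and 1579 CPM in ML (log2 fold change -1.11 ± 0.24 (SE), adjusted p = 0.00524). Both were lower in LP without overlap, and the third was Krt6a, at 0 to 12.03 CPM in LP against 7.14 to 66.2 CPM in ML with overlap (adjusted p = 0.0418), which did not pass without LP replicates 2 or 3 or ML replicates 2, 3 or 4 (adjusted p 0.0608 to 0.144). The luminal keratins Krt8 and Krt18 did not pass (adjusted p = 0.561 and 0.374), at 434 to 1040.5 CPM in LP against 522 to 1144 CPM in ML and at 506 to 944 CPM in LP against 629 to 976 CPM in ML. Among 11 pan-luminal genes, 1 was higher and 2 lower (median -0.02), and Epcam, the adhesion molecule of epithelia, had 673 to 1007 CPM in LP against 623 to 911 CPM in ML (adjusted p = 0.834).

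Of 12 tested integrins, 5 were higher in LP and 3 lower (median 0.14). The 5 include Itgb3, whose difference follows from the sort. Beside Itgb3, Itga8 had 216, 192, 162 and 149.9 CPM in LP, against 2.76, 4.49, 16.1 and 12.4 CPM in ML (log2 fold change 4.35 ± 0.46 (SE), adjusted p = 4.62e-05), and Itgb8 had 117, 40.1, 76.1 and 60.2 CPM in LP, against 8.52, 12.1, 20.9 and 12.4 CPM in ML (log2 fold change 2.45 ± 0.36 (SE), adjusted p = 0.000382). Itga5, a subunit of the fibronectin receptor, had 1.72, 1.699, 4.88 and 3.21 CPM in LP, against 19.3, 21.9, 15.3 and 19.5 CPM in ML (log2 fold change -2.75 ± 0.40 (SE), adjusted p = 0.000374). Itga8 and Itgb8 were higher in LP and Itga5 lower, without overlap. Itga3 was also lower at 19.03 to 26.8 CPM in LP against 31.6 to 49.5 CPM in ML (adjusted p = 0.0221), but not without LP replicates 3 or 4 or ML replicates 2 or 4 (adjusted p 0.0532 to 0.0749). Without LP replicate 1 there were 3 members higher in LP, and without LP replicate 3 the median was -0.11.

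Of 19 tested genes of interferon response and antigen presentation, 7 were lower in LP and 1 was higher (median -0.99). Stat2, a factor that interferon activates, had 7.497, 6.45, 6.34 and 7.86 CPM in LP, against 24.1, 32.1, 37.6 and 30.02 CPM in ML (log2 fold change -2.13 ± 0.27 (SE), adjusted p = 0.000122). H2-D1, a class I antigen-presenting molecule, had 266, 299, 259 and 283 CPM in LP, against 747, 635, 536 and 571 CPM in ML (log2 fold change -1.17 ± 0.18 (SE), adjusted p = 0.000503). B2m, its partner chain, had 356, 426, 432 and 328 CPM in LP, against 854, 531, 988 and 689.98 CPM in ML (log2 fold change -0.99 ± 0.22 (SE), adjusted p = 0.00606). None overlapped, and Ifitm3 was lower as well at 13.9 to 37.9 CPM in LP against 92.9 to 142 CPM in ML. With the basal libraries in the fit, 5 members were lower in LP and 0 higher. Ifit2, the exception, had 1.87 to 9.83 CPM in LP against 0 to 2.31 CPM in ML (adjusted p = 0.0425), and did not pass without LP replicates 1, 3 or 4 or ML replicates 1, 2 or 3 (adjusted p 0.0577 to 0.13).

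Of 22 tested genes known to respond to tissue dissociation, 3 were higher in LP and 5 lower (median -0.18). Fosl2 had 833 to 1417 CPM in LP, against 178 to 288 CPM in ML (log2 fold change 2.16 ± 0.23 (SE), adjusted p = 4.59e-05), and Hspa1b, a heat shock protein, had 18.4 to 70.8 CPM in LP, against 131 to 184 CPM in ML (log2 fold change -1.94 ± 0.33 (SE), adjusted p = 0.00123). Without LP replicate 2 or ML replicate 1 there were 3 members lower in LP, and without LP replicate 3 the median was 0.03. Their part in the differences between the populations was not tested.

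Markers of other cell types moved as follows. Of 8 tested fibroblast markers, 7 were higher in LP and 1 lower (median 3.61). Pdgfra, a receptor of platelet-derived growth factors, had 15.98, 25.6, 14.6 and 29.5 CPM in LP, against 0, 1.21, 1.61 and 1.44 CPM in ML (log2 fold change 4.37 ± 0.64 (SE), adjusted p = 0.000366). Dpt, dermatopontin of the extracellular matrix, had 17.2, 10.4, 21.7 and 95.9 CPM in LP, against 0, 0.173, 0.201 and 1.59 CPM in ML (log2 fold change 6.12 ± 0.97 (SE), adjusted p = 0.000829). Col3a1, a fibrillar collagen, had 17.6, 26.7, 20.98 and 68.2 CPM in LP, against 2.88, 6.04, 4.22 and 3.75 CPM in ML (log2 fold change 2.99 ± 0.46 (SE), adjusted p = 0.000551). The populations were separate for all 3, and LP replicate 4 was highest for each. Dcn, decorin, also a matrix protein, was the 1 lower in LP, with 71.5, 28.4, 60.01 and 172 CPM in LP, against 604, 133, 1070.4 and 411 CPM in ML (log2 fold change -2.74 ± 0.61 (SE), adjusted p = 0.00725), and LP replicate 4 lay above ML replicate 2. Summed over the 10 markers in the table, the libraries held 131 to 498 CPM in LP and 154 to 1081 CPM in ML, and most of the ML sum was Dcn. Without LP replicate 4 there were 1066 genes higher in LP, against 1255 with it. Leaving out any other single library gave 1017 to 1306. Genes lower in LP numbered 1067 without LP replicate 4, against 1194 with it. No other of these fits had fewer genes higher than lower in LP. Every lost library also changes the power of the fit, and whether the drop was particular to LP replicate 4 was not tested. The part of these markers in any result above was not tested.

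Of 14 tested basal markers, Lama1 (10.1 to 26.3 CPM in LP against 2.07 to 5.43 CPM in ML) and Oxtr (38.1 to 79.5 CPM in LP against 7.77 to 28.7 CPM in ML) were higher in LP and none was lower in the fit of all 8 libraries, and the 15 in the table summed to 164 to 232 CPM in LP and 105 to 306 CPM in ML. Krt5 and Trp63, which define basal cells, had 1.19 to 8.66 CPM in LP against 1.38 to 43.4 CPM in ML and 0 to 5.95 CPM in LP against 3.76 to 26.5 CPM in ML and did not pass (adjusted p = 0.0978 and 0.076). Without ML replicate 1 there were 2 basal markers lower in LP, and 1 without LP replicate 2 or ML replicate 4. With the block Trp63 was lower in LP (adjusted p = 0.0087). Of 5 tested endothelial markers, Vwf was lower in LP, with 15.98, 5.95, 6.83 and 2.09 CPM in LP, against 142, 50.4, 48.8 and 41.6 CPM in ML (log2 fold change -3.18 ± 0.56 (SE), adjusted p = 0.00151), and the others did not pass. Sums over the 10 endothelial markers were 20.6 to 37.0 CPM in LP and 59.5 to 163 CPM in ML. Adipocyte markers summed to 4.63 to 9.17 CPM in LP and 6.27 to 10.5 CPM in ML, and erythroid markers to 0.488 to 2.09 CPM in LP and 2.16 to 6.91 CPM in ML. Cd3g is not analysed here.

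The same contrast was run in the ID4 KO mice, whose 8 luminal libraries are separate from the WT ones. In KO cells 1452 of 11857 tested genes were called (12.2%), 913 higher in LP and 539 lower. Of 11453 genes tested in both genotypes, 1198 were called in both and all of them in the same direction, which is 84.9% of the KO calls and 50.3% of the WT calls. No gene was called in opposite directions. The test of the difference between the genotypes, KO effect minus WT effect, called 0 of 13013 genes (0%) in edgeR, with 363 at an unadjusted p under 0.05, and 0 in DESeq2, with 460.

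**Figure D5:**
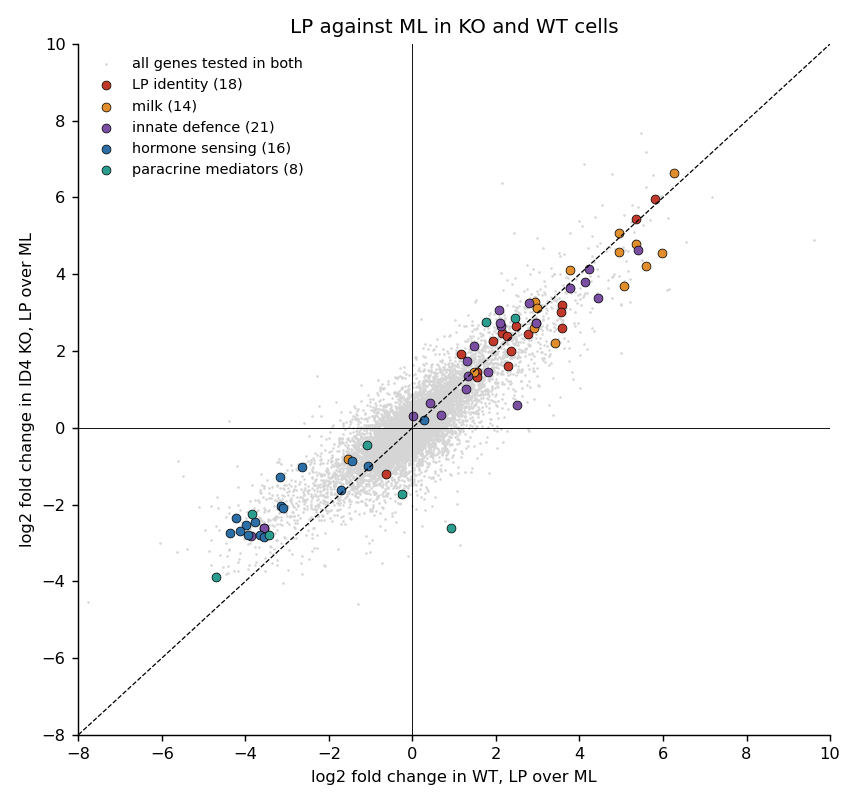
Log2 fold change of LP over ML in ID4 KO cells (vertical) against that in WT cells (horizontal) for genes tested in both; grey points are all genes, coloured points the members of 5 lists with their number, and the dashed line marks equal values. The 16 hormone-sensing genes lie nearer 0 in KO than in WT, and milk, innate defence and LP identity genes lie on both sides of the line.

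On the LP side, values of the LP identity list were similar in the 2 genotypes, and those of other sets were mixed. The LP identity list, which includes Itgb3, had a median log2 fold change of 2.43 in KO and 2.32 in WT. In each genotype, 14 of its 18 members were higher in LP. Itgb3, whose difference follows from the sort, gave 5.95 ± 0.64 in KO and 5.80 ± 0.34 in WT, and Spp1 6.64 ± 0.52 in KO and 6.27 ± 0.94 in WT. The milk list had a median of 3.91 in KO and 4.35 in WT, and innate defence 2.12 in KO and 2.08 in WT. WT calls higher in LP had a median of 1.52 in KO and 1.80 in WT, and KO calls higher in LP 1.97 in KO and 1.88 in WT. These 2 sets of calls were each chosen by the values of 1 genotype. On the ML side, most fitted values of the sets given here were nearer 0 in KO. The median over 16 hormone-sensing genes was -2.23 in KO and -3.36 in WT, and all 16 lay nearer 0 in KO, although none of the 16 differences passed. This list was chosen with earlier results known, and its genes come from the same libraries. Their number is therefore no separate test of the genotype. Prlr gave -2.80 ± 0.32 in KO and -3.64 ± 0.24 in WT, with a difference of 0.83 ± 0.35 (unadjusted p = 0.0275, adjusted p = 1.00). Pgr gave -2.68 ± 0.44 in KO and -4.13 ± 0.42 in WT. Among all WT calls that were lower in LP, 86.8% lay nearer 0 in KO, against 66.4% of those higher in LP, where the genes were chosen by their WT values. Among KO calls, 67.2% of those lower in LP and 43.9% of those higher lay nearer 0 in KO.

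None of the single differences between genotypes passed. Those with the smallest p in each direction were Agtrap, Phyh and Bmp3 on 1 side and Snhg6, Arl4c and Adck1 on the other, all with an adjusted p of 1.00. Bmp3 gave -2.66 ± 0.28 in KO and -4.96 ± 0.49 in WT, a difference of 2.30 ± 0.54 (unadjusted p = 0.000419). Agtrap, a protein that binds the angiotensin receptor, gave -1.08 ± 0.31 in KO and -2.80 ± 0.24 in WT (unadjusted p = 0.00019). Among the caseins, Csn3 was called in both genotypes, at 4.57 ± 0.67 in KO and 4.96 ± 0.63 in WT. Csn2 gave 4.21 ± 1.81 in KO, where it did not pass (adjusted p = 0.198), and 5.60 ± 1.49 in WT, with a difference of -1.43 ± 2.28 (adjusted p = 1.00).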

How the data were processed

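RNA-seq expected counts per gene were deposited by the authors as 1 table of 24 libraries, and the values are RSEM estimates, per the file headers and the submitters' processing notes. These notes name cutadapt, STAR, RSEM and build mm10 without versions; the settings and any filter on the table were not stated there. Of the values, 4.36% had a fraction, and all were rounded to whole numbers. The table held 24007 genes, of which 25 had no symbol and 49 were at 0 throughout. Identifiers were matched to GENCODE M21 for 98.96%.

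The 4 WT LP and 4 WT ML libraries were fitted alone in edgeR 4.0.16 (R 4.3.3) with TMM scaling, filterByExpr at a minimum count of 10 and a robust quasi-likelihood test, without a block. Fitted fold changes use a small prior count, and the SE is the size of the log2 fold change divided by the square root of F. The common biological coefficient of variation was 0.387. ID4 KO libraries were fitted in the same way, and a fit of 16 libraries tested the KO effect minus the WT effect. No pair of replicates agreed within sampling noise (lowest chi-square over its degrees of freedom, 23.7). Depth is given in the report, and 3 counts were worth 0.414 to 0.710 CPM of the raw library total in the WT luminal libraries. This covers counting error only, and the CPM of the report, on TMM-scaled totals, differ somewhat from that scale.

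Same-numbered LP and ML libraries deviated together from their group means, with correlations of 0.23, 0.26, 0.36 and 0.11. Libraries of different numbers gave -0.24 to 0.21. ML replicate 4 correlated more with LP replicate 3 (0.21) than with LP replicate 4 (0.11), so these values do not settle that pair. The pairing is taken from the design, in which both populations were sorted from the pooled cells. The fit with the pool as a block is given where it changes the call of a gene named in the report. It is also given where it moves a list's count in 1 direction by over 1.5 times. On simulated counts for 11920 genes of the WT comparison, 27.3%, 89.6% and 100% of genes changed by log2 1, 2 and 3 were recovered, and 2.68% of calls were false. Alternatives were no expression filter, DESeq2 1.42.0 size factors, DESeq2, limma 3.58.1 voom with sample weights, the block, the 12 WT libraries together, each pair of replicates alone and each library left out.

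Genes are named by rule: the 10 largest called changes in each direction, without overlap, with a mean of at least 10 CPM in the higher population and a median count of at least 1 in the lower one, leaving out predicted, mitochondrial, immunoglobulin and ribosomal genes; the 5 most abundant called genes at 2-fold or more, up to 4 called genes at 0 in 1 population, the marker and sort genes, the 3 smallest p-values of the genotype difference in each direction, members of lists of up to 20 genes, and in longer lists the 4 smallest p-values with the members that went the other way. The members and lists were chosen with earlier results of these data known. Basal libraries enter only where named. Figures were drawn with matplotlib 3.10.9.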

Additional observations from a re-analysis of the deposited data

Results flagged for a closer look

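There were 314 sets of 4 WT libraries, 1 set in each population for each named gene, without those named only for the genotype difference. Of these, 22 had a library far from the other 3 by Dixon's test. Chance flags about 1 in 20 sets, but a set was flagged only where a library reached 5 CPM, and lower sets are among the 314. Pool 2 held 11 of the 22. In LP replicate 2, Csn2 stood at 29801 CPM, Csn1s1 at 26311 CPM, Lao1 at 547 CPM, Slc7a5 at 103 CPM and Sfrp1 at 26.7 CPM, each above the other LP libraries. In ML replicate 2, Csn2 stood at 573 CPM, Spp1 at 65.6 CPM, Inhba at 52.1 CPM, Tjp3 at 15.2 CPM and Lao1 at 12.4 CPM, above the other ML libraries, while Myc was below them at 68.5 CPM.

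In LP replicate 4, Dpt was high at 95.9 CPM and Tek at 12.5 CPM, and Slpi was low at 2.25 CPM. LP replicate 3 was low for Igfbp5 at 3979.9 CPM and high for Fzd6 at 29.8 CPM, and LP replicate 1 was high for Elovl6 at 47.4 CPM. In ML replicate 1, Wnt4 was high at 167 CPM and Vwf at 142 CPM, and Dsc2 was low at 20.4 CPM and Gclm at 60.2 CPM. In ML replicate 3, Scd1 was high at 239 CPM. The source of these deviations was not tested.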

How the results depend on the processing

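No named gene that passed changed direction in an alternative. Of those that did not pass, Pecam1 had a log2 fold change of -0.42, against 0.27 with voom and 0.15 in replicates 3 and 4 alone, Fabp4 -0.41, against 0.036 in replicates 1 and 2 alone, Arl4c 1.09, against -0.079 in replicates 3 and 4 alone, and Adck1 0.22, with -0.053 without LP replicate 1 to 0.51 without ML replicate 2. Some list medians near 0 changed sign, among them these: amino acid transporters had -0.32, against 0.39 in replicates 1 and 2 alone and 0.08 with no filter, the BCL2 family -0.62, against 0.15 with no filter, the Wnt list 0.24, against -0.16 with no filter, and lipid synthesis 0.04, against -0.21 with voom. With the pool as a block, the counts higher and lower in LP were 10 and 8 for redox genes, 6 and 5 for amino acid transporters, 4 and 2 for the BCL2 family, 5 and 7 for dissociation genes and 16 and 2 for LP identity. The 2449 WT calls became 1470 (845 higher in LP, 625 lower) with the basal libraries in the fit and 1436 (839 and 597) in replicates 1 and 2 alone. Leaving out 1 library gave 1955 to 2449 WT calls. Leaving out 1 library gave 930 to 1765 KO calls, the lowest without KO ML replicate 4, against 1452 in the full fit. With the pool as a block there were 3026 WT calls (1565 higher in LP, 1461 lower), and the block ended the call of 1 of the named genes and lists, Snhg6 (adjusted p = 0.0526). The other settings gave 2324 (replicates 3 and 4 alone), 2458 (DESeq2 size factors), 2654 (no filter), 2859 (voom) and 2993 (DESeq2) WT calls. Of 3047 alternatives for single genes and lists, 151 lost a call, 5 changed sign, 12 gained a call and 28 totals of called list members, both directions together, moved by over 1.5 times. Where a call was lost, the cause was not tested. On simulated counts with 200 changed genes, a log2 change of 1 was mostly missed even in genes with a mean above 10 CPM. That share need not hold for the data, where 2449 genes were called. Genes that did not pass are not shown to be equal.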
